A study of Mus musculus with 9 samples.

Results

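The baseline repertoire of tRNA-derived fragments was described in 3 untreated complexes of mouse retinal pigment epithelium (RPE), choroid and sclera, out of the 9 small RNA libraries of the study. These were the libraries titled control, and all 200 fragments that the authors listed were included. The mice were C57BL/6 and carried no allele or agent named in the labels. The remaining libraries came from laser-treated eyes and are not compared here. A treatment protocol attached to every sample, controls included, gives an age of 6 to 8 weeks where it describes the laser-treated mice. A complex holds several tissues: the RPE, a pigmented sheet behind the retina, the choroid, its vascular bed, and the sclera, the fibrous coat of the eye. Fewer cells of a type and less RNA per cell therefore cannot be told apart, and because the table lists tRNA-derived fragments alone, the labelled tissue was not checked against marker genes. No label states whether each complex was taken from its own mouse, so the spread between the libraries may be technical.

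Transfer RNAs carry amino acids to the ribosome and fold into a cloverleaf whose anticodon loop reads the codon. Cells cut them in this loop into a 5' and a 3' piece, known as tiRNAs, a reaction that angiogenin carries out in stressed mammalian cells. Shorter pieces, known as tRFs, come from the 5' end (tRF-5), from the 3' end with its added CCA (tRF-3) or from the trailer that is removed from the precursor (tRF-1), which ends in the run of uridines where RNA polymerase III stops. The 5' fragments of tRNA Gly-GCC and Glu-CTC are known as abundant small RNAs of mouse sperm and serum. A fragment's listed name gives its first and last base in the mature tRNA and then its parent tRNA by amino acid, anticodon and number. A name that ends in -M and a number gives how many tRNA sequences the fragment matched in the deposited alignments, which held for all 74 such names.

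The leading fragment, the tRNA it comes from and the leading fragments of selected other parents are shown as DNA letters, 5' to 3', as deposited. They are shown because the results turn on where each one ends. Capitals mark bases of the anticodon loop, in which the first 2 bases precede the anticodon.
tRNA-Gly-GCC-2-1: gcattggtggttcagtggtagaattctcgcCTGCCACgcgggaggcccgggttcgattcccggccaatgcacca
tRF-1:31-Gly-GCC-2-M3: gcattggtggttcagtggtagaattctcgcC
tiRNA-1:34-Lys-CTT-3: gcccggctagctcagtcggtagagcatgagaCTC
tRF-1:32-Val-AAC-1-M2: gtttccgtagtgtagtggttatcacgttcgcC
tiRNA-1:34-Glu-TTC-1: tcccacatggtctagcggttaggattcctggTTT
tRF-1:31-His-GTG-2: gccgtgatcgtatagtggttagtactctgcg
The Lys and Glu fragments reach the first base of the anticodon, the Gly and Val fragments stop 1 base into the loop, and the His fragment stops at the last base of the stem.

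Control 1 stood apart from the other controls before any result. The libraries held 1223377, 1749792 and 2155977 mapped reads in controls 1 to 3, of which the listed fragments took 75.8, 76.0 and 75.7%. A single read was worth 0.817, 0.571 and 0.464 CPM (the count scaled to the library's mapped reads), and the limit that a count of 0 allows (3 counts) was 2.45, 1.71 and 1.39 CPM. Over the 200 fragments, the median absolute log2 difference was 0.49 between controls 1 and 2, 0.49 between controls 1 and 3 and 0.26 between controls 2 and 3. Control 1 was the library farthest from the median of the 3 in 104 of the 200 fragments and the lowest in 122. The median coefficient of variation (CV, the SD divided by the mean) over fragments was 24.2% with all 3 controls and 13.3% without control 1. Intervals are Wilson 95% intervals and cover counting error only, since the labels describe no molecular identifiers. They are far narrower than the spread between libraries: tiRNA-5 held 3.20% of listed counts in control 1 (interval 3.16 to 3.23%) and 4.36% in control 2 (4.33 to 4.40%). Values are given as mean ± SD of the 3 controls unless each control is named.

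The listed lengths fell into windows by class. These windows were read from the listed fragments, and no stated rule for them was used here. All 121 tRF-5 fragments had 14 to 16 nt (tRF-5a), 22 to 24 nt (tRF-5b) or 28 to 32 nt (tRF-5c). Every one of the 25 tiRNA-5 ended exactly at the first base of the anticodon. The table listed no tRF-5 of 17 to 21 nt and no 5' fragment of 25 to 27 nt, and tRF-5 of such lengths were not analysed here. The libraries were also cut from a gel at 134 to 160 bp; the effect of this size choice on the lengths was not tested. Each listed fragment reached 20.1 CPM in at least 1 of the 9 libraries, and 31 fragments stayed under 20 CPM in every control. In the mean of the controls, 148 fragments were at or above 20 CPM.

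A single fragment made up most of the repertoire. The 31 nt fragment tRF-1:31-Gly-GCC-2-M3 had 503688, 484432 and 486137 CPM in controls 1 to 3, a CV of 2.17% and 49.1% ± 1.07 of all mapped reads. This 1 fragment was enough to reach 50% of the listed counts in every control. It took 3 fragments in control 1 and 4 in each of controls 2 and 3 to reach 90%, and 37, 44 and 42 to reach 99%. The 30 nt form, tRF-1:30-Gly-GCC-2-M3, had 86527, 113986 and 105351 CPM, and the 32 nt form, tRF-1:32-Gly-GCC-2-M3, had 101896, 81397 and 88594 CPM. The 32 nt form was above the 30 nt form in control 1 and below it in controls 2 and 3, so the order of these 2 lengths was not fixed at this spread. The next were tRF-1:31-Gly-GCC-1 at 13477, 12591 and 14860 CPM and tiRNA-1:33-Gly-GCC-2-M3 at 10616, 15352 and 14080 CPM. These 5 fragments, all 5' pieces of Gly-GCC and the only ones above 10000 CPM, held 93.8% of listed counts on average. Below them, 13 fragments lay at 1000 to 10000 CPM, 46 at 100 to 1000, 84 at 20 to 100, 39 at 10 to 20 and 13 under 10 CPM. The effective number of fragments, the inverse of the summed squared shares, was 2.11, 2.27 and 2.24.

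By class, the counts lay almost entirely in the long 5' fragments. The 83 tRF-5c summed to 726863, 721123 and 720709 CPM, a CV of 0.476%, and held 95.3% ± 0.559 of listed counts. The 25 tiRNA-5 summed to 24235, 33152 and 29910 CPM, or 3.84% ± 0.589, and were lowest in control 1. The other 5' classes were small: 29 tRF-5a summed to 1435, 2015 and 1971 CPM, and 9 tRF-5b to 2293, 1444 and 1600 CPM, with control 1 lowest in the first class and highest in the second. The tRF-5b were led by mitochondrial serine, and the leading nuclear one, tRF-1:23-Val-AAC-1-M4, had 289, 462 and 364 CPM. On the 3' side, 28 tRF-3a summed to 1439, 1488 and 1809 CPM, 6 tRF-3b to 188, 287 and 273 CPM, and 3 tiRNA-3 to 121, 152 and 151 CPM. The 16 tRF-1 summed to 1045, 638 and 543 CPM. Counted by fragments rather than by reads, tRF-5c were 41.5% of the list, tRF-5a 14.5%, tRF-3a 14% and tRF-1 8%. The sum of all 146 5' fragments hardly differed between libraries (99.6% ± 0.0143 of listed counts), while the 37 3' fragments held 0.260% ± 0.0326.

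**Figure D1:**
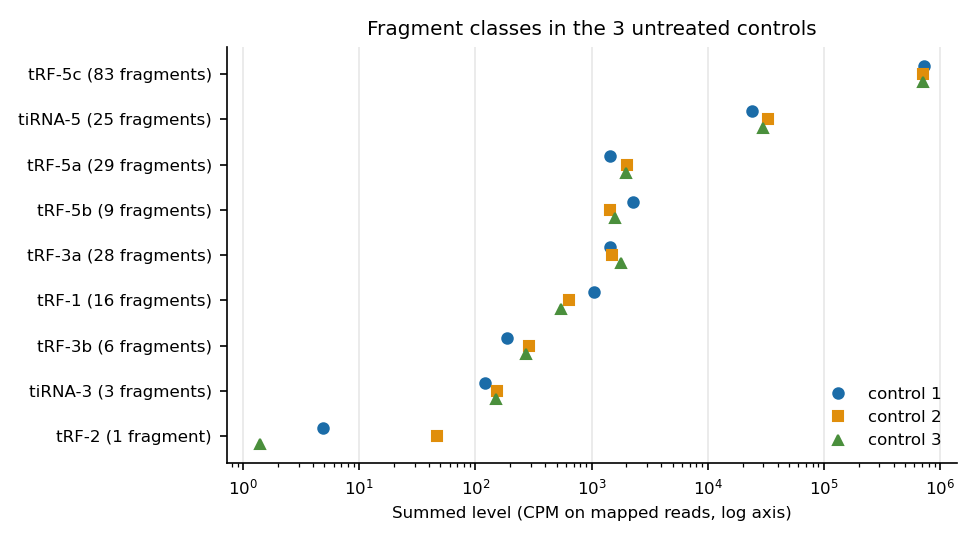
Summed level of each fragment class in the 3 untreated controls, in CPM on a log axis; each point is 1 library and the number of fragments stands beside the class name. The tRF-5c points lie together between 720709 and 726863 CPM, while the tRF-1 points run from 1045 CPM in control 1 to 543 CPM in control 3.

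The class names did not separate fragments that end in the anticodon loop from those that end before it. The anticodon of each parent was located in the deposited tRNA sequence by its letters between paired stem arms, and the end of each 5' fragment was counted from it. Where a fragment matched several tRNA sequences, the first was used. For 11 of the 200 fragments, some of them 3' fragments, the matched sequences gave different ends. These 11 held 0.153% ± 0.00474 of listed counts and include the Gly-CCC-3-M2 fragments of 30, 31 and 32 nt. Of the 78 nuclear tRF-5c, 34 ended inside the loop, 1 or 2 bases into it, and these 34 held 83.2, 77.6 and 79.3% of all listed counts in controls 1 to 3. The other 44 nuclear tRF-5c ended in the last 4 bases of the stem and held 12.8, 17.2 and 15.9%. The 24 nuclear tiRNA-5 ended 3 bases into the loop and held 3.17, 4.34 and 3.93%. Loop-ending fragments of both classes thus numbered 58 of the 134 nuclear 5' fragments and held 83.9% ± 2.24 of listed counts, against 3.81% ± 0.594 under the tiRNA-5 name. Of the counts of the 134 nuclear 5' fragments alone, they held 84.4% ± 2.33. Without the 15 Gly-GCC fragments, 52 of 119 nuclear 5' fragments ended in the loop. These 52 held 78.4% ± 1.05 of the counts of those 119, and 68.8% of all listed counts without Gly-GCC. The share thus did not rest on Gly-GCC alone.

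The tiRNA-5 of the leading parents did not move together between the controls. The lysine fragment tiRNA-1:34-Lys-CTT-3 had 3781, 7165 and 5918 CPM, and tiRNA-1:34-Lys-CTT-2 had 758, 1497 and 1460 CPM. The valine fragment tiRNA-1:34-Val-CAC-2 had 522, 1360 and 1101 CPM. All of these were lowest in control 1. The Glu-TTC fragments ran the other way: tiRNA-1:34-Glu-TTC-1 had 3330, 3019 and 3097 CPM, tiRNA-1:34-Glu-TTC-2 had 2200, 2086 and 1907 CPM and tiRNA-1:34-Glu-TTC-3 had 1618, 988 and 700 CPM. Control 1 was their highest library. The tiRNA-5 of the other glutamate isoacceptor, tiRNA-1:34-Glu-CTC-2, was lowest in control 1, at 23.7, 60.01 and 39.9 CPM. Smaller tiRNA-5 also came from further glycine, proline, histidine, lysine, valine, aspartate and alanine tRNAs. The glycine fragment tiRNA-1:33-Gly-CCC-1 had 205, 255 and 284 CPM, and the histidine fragment tiRNA-1:34-His-GTG-2 had 99.7, 113 and 114 CPM. Both were lowest in control 1. The proline fragment tiRNA-1:33-Pro-CGG-1 had 172, 300.04 and 240.3 CPM, tiRNA-1:34-Lys-TTT-1 had 140, 128 and 147 CPM, tiRNA-1:34-Asp-GTC-1-M2 had 31.9, 55.4 and 85.3 CPM and tiRNA-1:34-Val-TAC-1 had 32.7, 43.4 and 39.9 CPM.

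Pooled over parents, where in the loop the fragments stopped differed with the place of the anticodon. In 12 parents the anticodon begins at base 33, and every end from 28 to 33 nt was listed for at least 1 of them. Over their 37 fragments, the 31 nt form (1 base into the loop) held 69.9% ± 1.31 of counts, the 30 nt form (last base of the stem) 14.5% ± 2.03, the 32 nt form (last base before the anticodon) 12.8% ± 1.42 and the 33 nt form (first base of the anticodon) 1.96% ± 0.358. Gly-GCC weighs heavily here: over the 25 fragments of the other 10 parents, the same 4 ends held 39.9% ± 1.57, 12.6% ± 0.724, 21.3% ± 2.39 and 25.2% ± 2.92. In the 23 parents whose anticodon begins at base 34, no 33 nt form was listed. Such a form lies outside the 28 to 32 nt of the tRF-5c and does not end where the tiRNA-5 end. Whether a class rule leaves it out was not tested, and the shares of these parents lack this end. Among their 65 fragments, the 34 nt form (first base of the anticodon) held 53.8% ± 1.79 of counts and the 32 nt form (1 base into the loop) 29.9% ± 1.81. These ends are shown in the plot of end positions, where the empty place at 0 in the right panel is that missing form. Single parents did not all follow the pooled ends. At base 34, the Lys-CTT, Lys-TTT and Glu-TTC parents led at the first anticodon base in every control. Val-AAC-1 and Gly-TCC-1, also at base 34, led 1 base into the loop, and His-GTG-2, Glu-CTC-2 and Ala-CGC-5 led in the stem. At base 33, Gly-CCC-1 led at the first anticodon base, and Gly-GCC-1, Gly-GCC-2, Gly-CCC-2, Gly-CCC-3 and Ala-CGC-2 led 1 base into the loop.

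**Figure D2:**
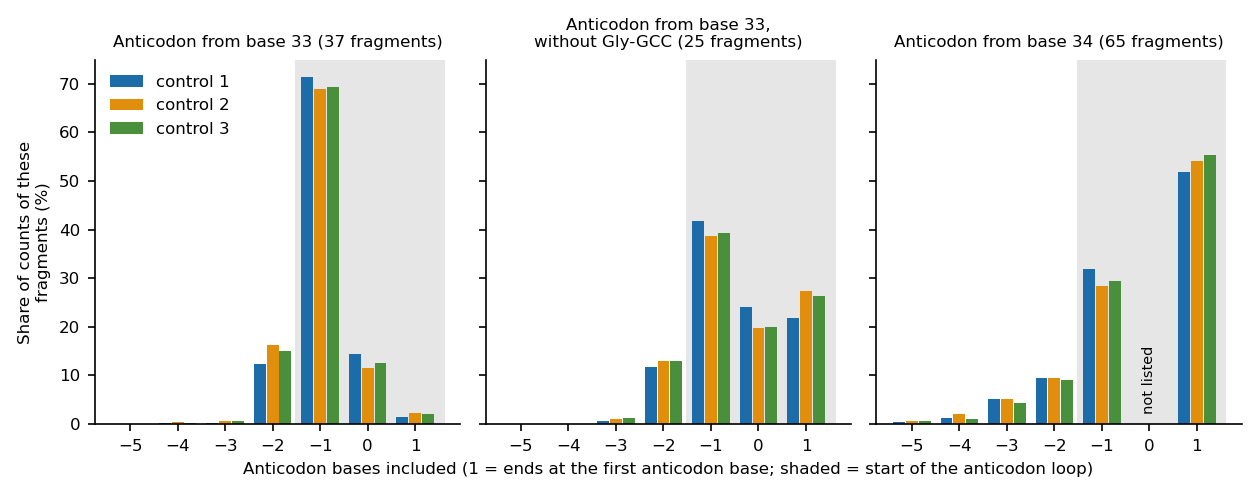
Share of the counts of nuclear 5' fragments of 28 nt or more by the place where they end, counted as anticodon bases included (0 is the last base before the anticodon, -1 the first base of the loop, -2 the last base of the stem), for each untreated control. Fragments whose anticodon begins at base 33 peak at -1, at 69.9% with Gly-GCC and 39.9% without it, and fragments whose anticodon begins at base 34 peak at 1, at 53.8%, with no listed form at 0.

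Each parent tRNA kept its own leading length in nearly all libraries. Among 22 parents with 3 or more listed 5' lengths, the most abundant length was the same in all 3 controls in 20. The exceptions were Pro-AGG-1, led by 31 nt in control 1 and by 32 nt in controls 2 and 3, and Ala-AGC-3, led by 15 nt in controls 1 and 2 and by 24 nt in control 3, with 23.4 CPM at most. Of the nuclear parents with a shared leading length, 7 led at the first base of the loop, 7 at the first base of the anticodon, 2 at the last base of the stem, 1 at 1 base before that, and 2 had only short fragments. The first 7 were Gly-GCC-1, Gly-GCC-2, Gly-CCC-2, Gly-CCC-3, Gly-TCC-1, Ala-CGC-2 and Val-AAC-1. The next 7 were Glu-TTC-1, Glu-TTC-2, Glu-TTC-3, Lys-CTT-2, Lys-CTT-3, Lys-TTT-1 and Gly-CCC-1.

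Parents of the same amino acid could differ in sharpness. The valine tRNA Val-AAC-1 had 93.6, 89.5 and 92.7% of its counts of 28 nt or more at 32 nt. In lysine tRNAs, Lys-CTT-2 had 92.8, 92.6 and 92.7% at 34 nt, whereas Lys-CTT-3 had 49.2, 65.8 and 64.3% at 34 nt and 34.3, 23.2 and 25.5% at 32 nt. The 34 nt fragments of these lysine parents differ at a single base, A29G counted from the 5' end with the Lys-CTT-3 base first. Glutamate tRNA Glu-TTC-1 had 81.2, 70.9 and 76.5% at 34 nt, and the histidine tRNA His-GTG-2 spread over 31 nt (44.2, 50.8 and 49.5%), 32 nt (29.5, 16.5 and 19.5%) and 34 nt (15.2, 14.4 and 18.8%). Within glycine, Gly-CCC-1 had 52.1, 68.9 and 69.3% of these counts at 33 nt, against 8.50, 8.18 and 9.32% for Gly-CCC-2. At the leading lengths of Lys-CTT-3, His-GTG-2 and Gly-CCC-1, control 1 lay farther from the other controls than those did from each other. The loop-side tRF-5c of lysine were tRF-1:32-Lys-CTT-3, at 2640, 2523 and 2353 CPM, and tRF-1:31-Lys-CTT-3, at 1159, 1034 and 819 CPM, both highest in control 1, unlike the 34 nt form of the same tRNA. The Gly-GCC-2 forms of 28, 29 and 30 nt were lowest in control 1, among them tRF-1:29-Gly-GCC-2-M3 at 1866, 4068 and 4695 CPM. Over 17 parents, the mean length of the 28 to 34 nt fragments was shortest in control 2 in 10 parents and longest in control 1 in 11.

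Over the whole list, 31 nt was the leading length in every control. Fragments of 31 nt held 68.7, 65.9 and 66.7% of listed counts, 30 nt held 12.0, 15.7 and 14.5%, and 32 nt held 14.8, 12.1 and 13.02%. Lengths from 28 to 34 nt together held 99.2% ± 0.0280. Without Gly-GCC the order changed: 34 nt led with 37.4, 41.8 and 41.1%, followed by 32 nt with 25.2, 23.5 and 23.5% and 31 nt with 10.6, 10.4 and 10.1%. The next length outside this range was 22 nt, at 5.40, 2.51 and 3.31% without Gly-GCC, most of it the mitochondrial serine fragment tRF-1:22-chrM.Ser-GCT.

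**Figure D3:**
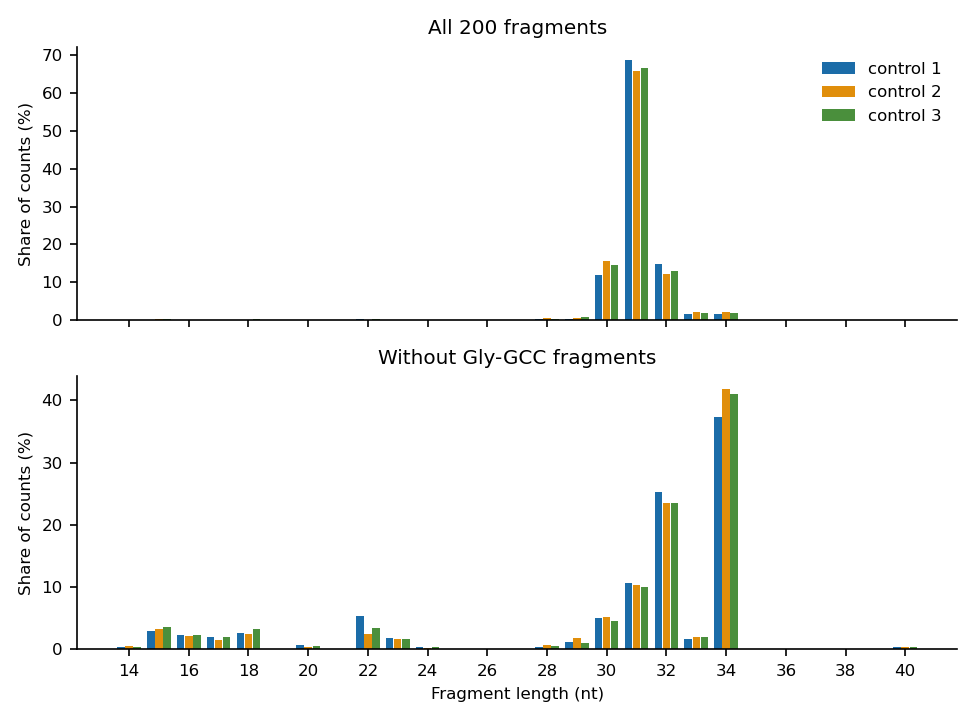
Share of counts by fragment length in each untreated control, for all 200 fragments (upper panel) and without Gly-GCC fragments (lower panel). The upper panel peaks at 31 nt, at 67.1% on average, and the lower panel at 34 nt, at 40.1%; lengths of 17 to 21 and 25 to 27 nt hold no listed tRF-5.

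The 200 fragments came from 18 amino acids and 40 isoacceptors, 35 nuclear and 5 mitochondrial. Glycine fragments held 95.8, 95.02 and 95.5% of listed counts, of which Gly-GCC had nearly all. After Gly-GCC, the summed level was 10627 ± 2010 CPM for Lys-CTT, 8262 ± 564 for Glu-TTC, 5366 ± 770 for Val-AAC and 1815 ± 63.1 for Gly-CCC. Lys-CTT had 8530, 12536 and 10815 CPM from its 5' fragments and Glu-TTC had 8686, 8479 and 7623 CPM, so the order of these 2 isoacceptors was reversed in control 1. The gap between Glu-TTC and Val-AAC was larger than their spread, as Val-AAC had 4683, 6200 and 5215 CPM. Glu-CTC, known as an abundant 5' source in mouse sperm and serum, had 168, 259 and 222 CPM, led by tRF-1:31-Glu-CTC-2 at 110, 138 and 132 CPM. Nuclear isoacceptors with RefSeq genes and a listed fragment numbered 34. Another 14 RefSeq isoacceptors had no fragment named for them, among them Ile-AAT, Asn-GTT, Thr-AGT and the Arg isoacceptors other than Arg-ACG. This split follows names. The listed iMet-CAT had no RefSeq gene count under that name and is outside the 34, while Met-CAT, with 16 RefSeq genes, is among the 14. Whether those 16 include initiator genes was not checked. Across the 34, gene copy number and summed level had a Spearman rho of 0.331, given as a description, since fragments share sequences between copies.

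**Figure D4:**
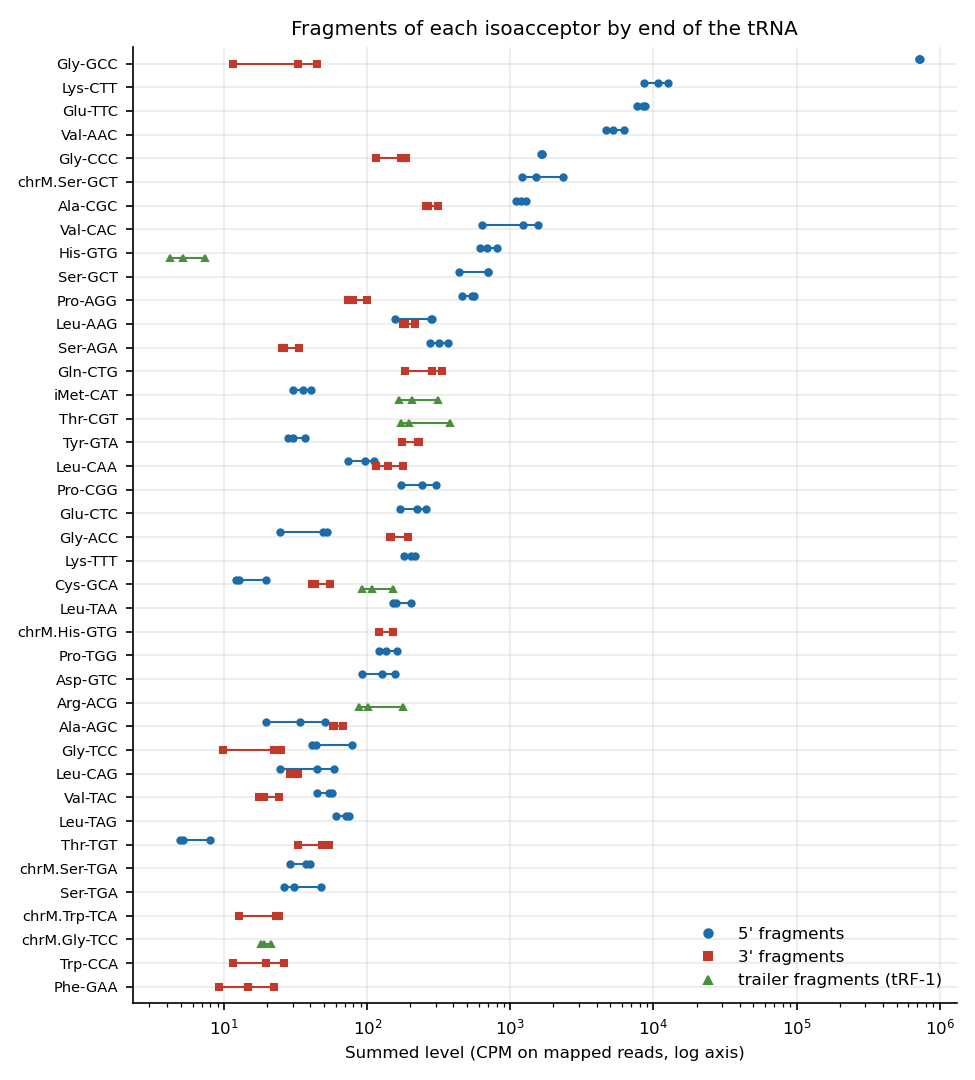
Summed level of 5', 3' and trailer fragments for each of the 40 isoacceptors, in CPM on a log axis; points are the 3 untreated controls, joined by a line, and isoacceptors are sorted by their mean total. The single tRF-2 fragment is not drawn. Gly-GCC stands between 720302 and 723670 CPM for 5' fragments and between 11.4 and 44.6 CPM for the 3' fragment listed under its name. Gln-CTG, Phe-GAA and Trp-CCA show 3' fragments alone.

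The side of the tRNA that was listed differed between isoacceptors. By listed name, 15 of the 40 isoacceptors had both 5' and 3' fragments. Another 17 had 5' but no listed 3' fragments, 5 had 3' but no listed 5' fragments and 3 had a trailer alone. A side without a listed fragment may still be present at a lower level, as each listed fragment reached 20.1 CPM in at least 1 of the 9 libraries. The sides also cover unlike lengths. Nuclear 3' fragments were listed at 17, 18 or 22 nt, while 5' fragments ran up to 34 nt, and the list ended at 40 nt. Longer 3' pieces of nuclear tRNAs, if present, are thus outside this comparison. Naming also matters, since 41 fragments match more than 1 anticodon. Without these 41, 3' fragments held 0.104% of the remaining counts, against 0.260% of all listed counts. The 3' side was above the 5' side in every control in 6 of the 15. These 6 were Leu-CAA, Gly-ACC, Ala-AGC, Tyr-GTA, Cys-GCA and Thr-TGT. Tyr-GTA had 230, 175 and 226 CPM of 3' fragments, against 27.8, 36.6 and 30.1 CPM of 5' fragments. For 7 isoacceptors the 5' side was higher in every control, with Gly-GCC at the extreme. The 3' fragment listed under the Gly-GCC name had 11.4, 44.6 and 32.9 CPM. The 22 nt fragment tRF-53:74-Gly-CCC-2-M4 (58.9, 110 and 115 CPM) is counted under Gly-CCC, although its letters also end the Gly-GCC-2 tRNA shown above. Gln-CTG had no listed 5' fragment and 185, 282 and 333 CPM of 3' fragments. The Gly-ACC fragments also match valine tRNAs in the deposited alignments, so their name is 1 of several that the reads allow.

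Fragments from the 3' end all ended in the letters CCA. The 37 were 17 or 18 nt (28 tRF-3a), 22 nt (6 tRF-3b) or 38 to 40 nt (3 tiRNA-3). In the 39 and 38 nt mitochondrial forms, part of these letters is encoded in the gene. Of the leading ones, 4 are shown with CCA in capitals, since CCA is added to the end of mature tRNAs.
tRF-58:75-Ala-CGC-1-M4: tccccggcatctccaCCA
tRF-68:85-Leu-AAG-1-M4: atcccaccgctgccaCCA
tRF-59:75-Gln-CTG-2: tctcggtggaacctCCA
tRF-53:74-Gly-CCC-2-M4: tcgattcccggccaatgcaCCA
The alanine fragment had 160, 166 and 218 CPM and the leucine fragment 158, 157 and 187 CPM. The glutamine fragment had 72.7, 98.9 and 109 CPM. All of them were highest in control 3, as were 22 of the 28 tRF-3a, against 61 of all 200 fragments. The 22 nt Gly-CCC-2 fragment had 58.9, 110 and 115 CPM. No tiRNA-3 of a nuclear tRNA was listed: all 3 were mitochondrial. However, no listed fragment of any kind was longer than 40 nt. A piece of the 74 nt Gly-GCC-2 tRNA from its second anticodon base to its 3' end would be longer than that. Whether a length limit leaves such nuclear pieces out was not tested. Further leading 3' fragments were tRF-60:76-Tyr-GTA-1-M5 at 132, 85.2 and 110 CPM, tRF-69:86-Leu-CAA-1-M5 at 102, 126 and 157 CPM, tRF-61:77-Gly-ACC-1-M6 at 107, 86.3 and 92.8 CPM and tRF-54:75-Ala-CGC-1-M2 at 71.9, 70.3 and 58.4 CPM. The lowest leaders were tRF-60:76-Thr-TGT-2-M2, tRF-58:75-Trp-CCA-1-M5 and tRF-60:76-Phe-GAA-1-M3, between 9.14 and 32.5 CPM in single controls.

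Serine and leucine tRNAs, which have a long variable arm, were seen by their shortest pieces. Their nuclear genes gave 18 of the 29 tRF-5a and 0 of the 102 nuclear 5' fragments of 28 nt or more. These 18 summed to 1260, 1749 and 1731 CPM, or 87.5% ± 0.585 of tRF-5a counts, and their 3' fragments to 354, 373 and 460 CPM. All 18 contain the letters GGCCGA, searched on the strand of the fragment, and none of the 11 other tRF-5a does. Over all 146 5' fragments these 18 were the only matches. The leading fragment of each of 4 isoacceptors is shown with the shared letters in capitals.
tRF-1:15-Ser-GCT-1-M4: gacgaggtGGCCGAg
tRF-1:15-Ser-AGA-1-M3: gtagtcgtGGCCGAg
tRF-1:16-Leu-AAG-1-M2: ggtagcgtGGCCGAgc
tRF-1:15-Leu-TAA-2: accaggatGGCCGAg
They had 327, 534 and 540 CPM (Ser-GCT), 204, 262 and 190 CPM (Ser-AGA), 119, 230 and 221 CPM (Leu-AAG) and 96.5, 117 and 149 CPM (Leu-TAA). Control 1 was the lowest for 3 of these 4, and the Ser-AGA fragment was lowest in control 3. Among the other leucine isoacceptors, tRF-1:16-Leu-TAG-3 and tRF-1:16-Leu-CAG-1-M3 had 74.4, 70.9 and 60.3 CPM and 24.5, 44.6 and 58.4 CPM. Gly-GCC itself had 1 tRF-5a, at 41.7, 30.3 and 31.5 CPM.

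Trailer fragments were highest in control 1. This held for 15 of the 16 tRF-1, against 52 of all 200 fragments. Without control 1 the class had 0.0778% of listed counts, against 0.0979% ± 0.0353 with all controls. The initiator methionine tRNA gene iMet-CAT-1 gave the leading trailer, tRF-+1:T16-iMet-CAT-1, at 147, 111 and 88.6 CPM. The 15 nt form, tRF-+1:T15-iMet-CAT-1, had 126, 78.3 and 62.2 CPM, the cysteine trailer tRF-+1:T16-Cys-GCA-3-3 had 112, 77.7 and 69.6 CPM and the arginine trailer tRF-+1:T22-Arg-ACG-1-3 had 71.9, 42.3 and 39.4 CPM. The order of the controls was the same in all of them. The threonine trailer Thr-CGT-1 summed to 381, 197 and 173 CPM over 4 lengths, and Thr-CGT, like Arg-ACG, had no listed 5' or 3' fragment. Its 4 forms differ in the length of their last run of T alone and are shown with that run in capitals.
tRF-+1:T29-Thr-CGT-1: gccctctttccgtgtggatttaagaaTTT
tRF-+1:T30-Thr-CGT-1: gccctctttccgtgtggatttaagaaTTTT
tRF-+1:T31-Thr-CGT-1: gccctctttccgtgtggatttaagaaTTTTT
tRF-+1:T32-Thr-CGT-1: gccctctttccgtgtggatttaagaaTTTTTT
tRF-+1:T16-iMet-CAT-1: tcggaggctttgTTTT
The 4 threonine forms had 49.04, 26.3 and 23.7 CPM at 29 nt, 119, 65.2 and 61.2 CPM at 30 nt, 134, 69.2 and 52.9 CPM at 31 nt, and 78.5, 36.004 and 34.8 CPM at 32 nt. In each of them control 1 was above the other controls, and 30 or 31 nt led. Of the 16 tRF-1, 14 end in 3 or more T and the other 2 in TT.

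The single tRF-2, tRF-30:43-Gln-CTG-1-M5, a 14 nt piece from around the anticodon of a glutamine tRNA, rested on control 2. It had 4.90, 46.9 and 1.39 CPM, the last of these being 3 counts.

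Mitochondrial fragments were few and came mostly from a single gene. The 17 mitochondrial fragments held 0.334, 0.188 and 0.229% of listed counts. All 17 matched a transcript of chromosome M of GRCm38 (GENCODE vM21), 4 of them after a last A, CA or CCA was taken off, and lay in 5 genes, 4 of them among the 22 mitochondrial tRNA genes. The gene mt-Ts2 (chrM:11613-11671, plus strand), which encodes the mitochondrial serine tRNA Ser-GCT, gave 92.5, 84.4 and 86.5% of mitochondrial counts. This tRNA is known for lacking the D arm, so its anticodon lies closer to the 5' end. Its leading fragment is shown with the anticodon in capitals, beside the 3 forms of the mitochondrial histidine tiRNA-3, whose capitals mark the bases after the stretch they share.
tRF-1:22-chrM.Ser-GCT: aagaaagattgcaagaactGCT
tiRNA-32:71-chrM.His-GTG: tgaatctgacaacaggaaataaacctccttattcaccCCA
tiRNA-32:70-chrM.His-GTG-M1-38:C>A: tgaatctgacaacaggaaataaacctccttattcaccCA
tiRNA-32:69-chrM.His-GTG-M1-37:C>A: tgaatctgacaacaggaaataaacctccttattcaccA
The serine fragment had 1583, 718 and 912 CPM, and control 1 lay above the other controls. It ended at the last base of the anticodon and made up 67.7, 59.6 and 60.7% of the 10 listed mt-Ts2 fragments. The 20 nt form, ending at the first base of the anticodon, made up 10.3, 13.4 and 13.1%, and the 23 nt form 11.4, 10.97 and 12.1%. No 21 nt form was listed. The gene mt-Th (chrM:11546-11612, plus strand) encodes the histidine tRNA and lies directly before mt-Ts2. Its 40 nt tiRNA-3 had 96.5, 114 and 117 CPM, and the 39 and 38 nt forms had 12.3, 17.7 and 17.6 CPM and 12.3, 20.002 and 16.2 CPM. All 3 forms begin at the second base of the anticodon, the base after the one at which tiRNA-5 end. The mitochondrial glycine trailer tRF-+1:T27-chrM.Gly-TCC, at 17.98, 21.1 and 19.02 CPM, matched chrM:9459-9485, inside the protein-coding gene mt-Nd3. The remaining mitochondrial fragments, from mt-Ts1 (led by tRF-1:24-chrM.Ser-TGA) and mt-Tw (tRF-54:70-chrM.Trp-TCA), had 11.4 to 24.1 CPM in single controls.

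Several listed fragments differ from a far more abundant one by a single base. The glycine parents are shown at 31 nt with capitals at the bases that differ from tRF-1:31-Gly-GCC-2-M3.
tRF-1:31-Gly-GCC-1: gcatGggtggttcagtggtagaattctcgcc
tRF-1:31-Gly-CCC-3-M2: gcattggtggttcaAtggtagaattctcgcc
tRF-1:31-Gly-CCC-2: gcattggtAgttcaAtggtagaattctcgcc
Counted from the 5' end with the Gly-GCC-2-M3 base first, Gly-GCC-1 differs by T5G, Gly-CCC-3-M2 by G15A, and Gly-CCC-2 by G9A and G15A. As a share of the Gly-GCC-2-M3 count of the same length, Gly-GCC-1 was 5.54% ± 0.862 at 28 nt, 2.78% ± 0.245 at 31 nt and 0.981% ± 0.102 at 33 nt. In each control the share at 28 nt (5.51, 6.42 and 4.69%) was above that at 33 nt (1.04, 0.864 and 1.04%). Gly-CCC-3-M2 was 0.101% ± 0.00657 at 30 nt, 0.0947% ± 0.00564 at 31 nt and 0.102% ± 0.00898 at 32 nt. At 33 nt, where the anticodon base G33C also tells them apart, it was 0.255% ± 0.0661. Whether base errors in reads of the abundant sequence feed the rare ones was not tested. In all, 15 fragments lie 1 base from a fragment at least 10 times as abundant, and they held 2.55% ± 0.174 of listed counts.

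For some parents the last base decides the isoacceptor. The leading valine fragment, tRF-1:32-Val-AAC-1-M2, at 3781, 4770 and 4170 CPM, matches both Val-AAC and Val-CAC tRNAs and stops before the anticodon. At 34 nt the first anticodon base tells them apart, and tiRNA-1:34-Val-CAC-2 differs from tiRNA-1:34-Val-AAC-1 by A34C, counted from the 5' end with the Val-AAC-1 base first. At that length Val-CAC-2 had 522, 1360 and 1101 CPM, against 94.8, 133 and 92.3 CPM for Val-AAC-1. The 32 nt counts, all listed under Val-AAC, can therefore not be divided between these isoacceptors, and the sharp 32 nt peak of Val-AAC-1 leaves out a 34 nt form listed under Val-CAC. Proline was alike in this: tRF-1:31-Pro-AGG-1-M3 (307, 230 and 208 CPM) and tRF-1:32-Pro-AGG-1-M3 (217, 262 and 213 CPM) match 3 proline anticodons. At 33 nt, tiRNA-1:33-Pro-CGG-1 and tiRNA-1:33-Pro-TGG-2 (99.7, 122 and 87.2 CPM) differ by T33C, with the Pro-TGG-2 base first.

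The name of a parent is not always its closest relative in sequence. The fragment tRF-1:30-Ala-CGC-5 was among the 20 most abundant, at 966, 984 and 764 CPM. It differs by 3 bases from each of the glutamate fragments tRF-1:30-Glu-CTC-2 and tRF-1:30-Glu-TTC-3. From the alanine fragment tRF-1:30-Ala-CGC-2 it differs by 18 of 30 bases. Capitals mark the bases that differ from tRF-1:30-Ala-CGC-5, with Glu-CTC-2 shown for glutamate.
tRF-1:30-Ala-CGC-5: tccctggtagtctagtggttaggattcggt
tRF-1:30-Glu-CTC-2: tccctggtGgtctagtggttaggattTggC
tRF-1:30-Ala-CGC-2: GGGGATgtagCTCagtggtAGAgCGCGCgC
The likeness ran through the parent tRNA as deposited. Over the last 20 bases, Ala-CGC-5 differed by 3 from each of Glu-CTC-2 and Glu-TTC-3 and by 12 from Ala-CGC-2. Glu-CTC-2 itself had 16.3, 38.9 and 27.4 CPM at 30 nt, below Ala-CGC-5 in every control. Of the 200 fragments, 74 match more than 1 tRNA sequence in the deposited alignments and hold 94.0% ± 0.264 of listed counts, 41 match more than 1 anticodon (1.00% ± 0.116), and 4 match more than 1 amino acid. RefSeq (GRCm38.p6) lists 14 Gly-GCC genes on 7 chromosomes, 4 of them at chr1:171044985-171081946, and the copy that gave the leading fragment cannot be told from its sequence.

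Fragments that begin with G held nearly all counts, and most of these counts were those of Gly-GCC. Gly-GCC held 95.2% of listed counts on average, and its leading fragments begin with G. Of the 200 fragments, 108 begin with G and held 98.1% ± 0.113 of listed counts, 57 begin with T and held 1.47% ± 0.0730, 32 begin with A and held 0.373% ± 0.0771, and 3 begin with C. The mean GC content weighted by counts was 51.4% ± 0.0281, close to the median over fragments of 53.1%. The leading fragment, which weighs most in this mean, had 51.6%. Among classes, the median GC content was 66.7% for tRF-5a, 64.7% for tRF-3a, 53.1% for tRF-5c, 51.5% for tiRNA-5, 41.4% for tRF-1 and 36.4% for tRF-5b. A run of 4 G at the 5' end, the feature for which alanine and cysteine tiRNAs are known in stressed human cells, opened 9 fragments. They came from alanine and cysteine tRNAs and held 0.0206% ± 0.00427 of listed counts. The leading one, tRF-1:31-Ala-CGC-2, had 55.6, 58.3 and 62.2 CPM, and tRF-1:32-Cys-GCA-1-M3 had 19.6, 12.6 and 12.1 CPM. None of the 9 was a tiRNA-5 by class.

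How far the fragments repeated between controls depended on their level. Among the 64 fragments at or above 100 CPM the median CV was 18.2%, against 5.12% from counting error alone, and 51 had a CV over 2 times the counting value. For the 84 fragments of 20 to 100 CPM the medians were 22.3 and 12.8%, and for the 52 under 20 CPM they were 31.3 and 20.7%, and in 14 of the 52 the CV was under the counting value. The least variable fragments at or above 100 CPM were tRF-1:32-Gly-GCC-1 (1512, 1452 and 1468 CPM, CV 2.13%), tRF-1:31-Gly-GCC-2-M3 (2.17%) and tRF-1:31-Gly-CCC-3-M2 (451, 488 and 456 CPM, 4.31%). The most variable were tRF-1:28-Gly-GCC-1 (71.9, 210 and 98.3 CPM, 57.9%), tRF-1:30-Glu-TTC-1 (53.9, 157 and 96.5 CPM, 50.4%) and tRF-1:28-Gly-GCC-2-M3 (1305, 3278 and 2096 CPM, 44.6%). The variable 3 were shorter than the leading form of their parents and were highest in control 2 and lowest in control 1. The steady 3 were forms of 31 and 32 nt.

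**Figure D5:**
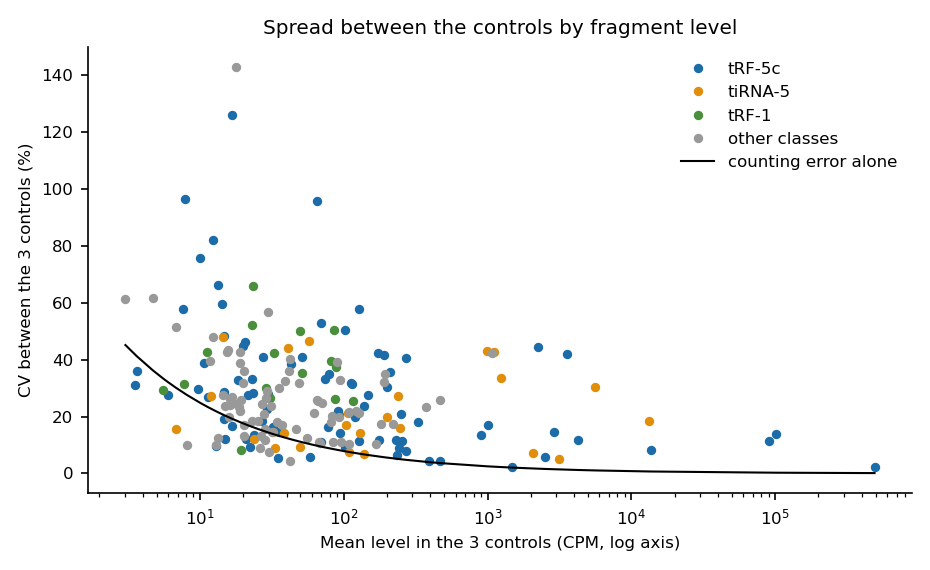
Coefficient of variation between the 3 untreated controls against mean level, for each of the 200 fragments; the line is the variation that counting error alone gives at that level. The fragments at or above 100 CPM have a median of 18.2%, against 5.12% from counting, and the tRF-2 fragment is the highest point, at 143%.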

How the data were processed

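Small RNA of RPE, choroid and sclera complexes was sequenced after a pretreatment that, per the labels' protocols, removed bound amino acids and cyclic phosphates, phosphorylated 5' hydroxyl ends and demethylated m1A and m3C. The submitters' processing notes name FastQC, Bowtie, edgeR and the build mm10; their roles and versions are not given in the sources used here. The authors deposited counts of reads (raw) and CPM (counts scaled to mapped reads) for every fragment in every library, per the file headers, and the ratio of the 2 gave the mapped totals. Of the deposited table, 7 empty lines were not used, and the 6 laser libraries entered only the highest CPM over all 9 libraries.

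Shares are percents of listed counts per library, averaged over the 3 controls with SD; no groups were compared and no test was run. Classes, lengths and parents are the authors'. Anticodons were found in the deposited tRNA sequences by letters flanked by up to 5 base pairs. Mitochondrial fragments were matched to GENCODE vM21 transcripts (GRCm38), and gene copies were taken from RefSeq (GRCm38.p6). Named fragments were the 20 most abundant, the 2 leading of each class, the leading one of each isoacceptor, and the 3 most and 3 least variable at 100 CPM or more; a few others were named after their values were seen. The members, lists and rules were chosen with earlier results of these data known. Alternatives were other denominators, filters, weightings, sets without the leading fragment, without Gly-GCC or without fragments of several anticodons, other scalings and each library left out. Code was tested on simulated data. Python 3.11.15, numpy 2.4.6, pandas 2.3.3, scipy 1.17.1, matplotlib 3.10.9, R 4.3.3 and edgeR 4.0.16 (TMM factors) were used.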

Additional observations from a re-analysis of the deposited data

How the results depend on the processing

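No paired analysis was possible because no groups were compared. A value counted as moved past 1 SD of the 3 controls for shares and for the leading fragment's level. The modal length counted as moved at any change, and other summaries past 1.5 times. Leaving out 1 of 3 libraries cannot shift a mean by 1 SD, so for shares and that level this comparison decides nothing. The other summary values that left out 1 library stayed within 1.5 times of the value with all 3, with 1 exception. The median CV ran from 13.3% (without control 1) to 25.04%, against 24.2% with all. Listed shares depend on Gly-GCC and on the denominator. As shares of all mapped reads, tRF-5c were 72.3%, 31 nt fragments 50.9%, Gly-GCC 72.2%, 5' fragments 75.6% and loop-ending fragments 63.6%. Without the most abundant fragment, these were 86.8, 6.54, 86.3, 98.98 and 54.3%, mitochondrial fragments 0.718% and the modal length 30 nt. Without Gly-GCC, tRF-5c held 40.4%, 31 nt fragments 10.3%, mitochondrial fragments 5.28%, 5' fragments 92.6% and loop-ending fragments 68.8%, with a modal length of 34 nt. With each fragment counted once, tRF-5c were 41.5%, 31 nt fragments 10.5%, Gly-GCC 8%, mitochondrial fragments 8.5%, 5' fragments 73% and loop-ending fragments 29%, with a modal length of 32 nt. At 100 CPM or more, Gly-GCC held 95.7% and 5' fragments 99.9%, and 8 of the 8 parents left kept a shared leading length, fewer because fewer were tested. Without fragments of several anticodons, Gly-GCC held 96.1% and 5' fragments 99.8%. Scaling to listed counts or by TMM factors (0.889, 1.08 and 1.04) gave a median CV of 24.1 and 22.4%. The loop-ending share was chosen after seeing the data, and so was leaving out fragments 1 base from one at least 10 times as abundant, which gave tRF-5c 95.2% and moved no summary past these limits. Of 88 values of other classes and lengths under alternatives, 54 moved by less than the spread between controls and 34 by more. The 54 include every value that left out 1 library, which could not have moved by more. Depth limits fragments under 20 CPM, where the median counting CV was 20.7%.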
